A study of Mus musculus with 99 samples.

Results

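The clustered protocadherins are a family of cadherin-like cell-surface proteins, encoded in 3 gene clusters side by side on mouse chromosome 18. Each gene brings its own large first exon, from its own promoter, and in the alpha and gamma clusters that variable exon is spliced to constant exons that the whole cluster shares. The beta genes have no constant exon. A neuron uses a small set of the alternate genes, chosen through CTCF, cohesin and DNA methylation, and the proteins bind like to like between cells, which lets branches of one neuron tell self from non-self. The C-type genes at the ends of the alpha and gamma clusters are regulated apart from the alternate genes and are not chosen at random in the same way. Members were the protein-coding genes whose GENCODE symbol is Pcdha, Pcdhb, Pcdhga, Pcdhgb, Pcdhgc or Pcdhac with a number, and 57 of 55335 counted gene identifiers matched. They are 12 alternate alpha genes, 22 beta genes, 12 gamma-A genes, 6 gamma-B genes and 5 C-type genes (Pcdhac1, Pcdhac2, Pcdhgc3, Pcdhgc4 and Pcdhgc5). One more identifier, Pcdhgb8, has a matching symbol but is annotated as a polymorphic pseudogene and stayed out, at 1.19 ± 0.392 CPM (SD, n = 98), where CPM is a gene's count scaled to 1000000 counts in the library.

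Bulk RNA-seq had been made from tissue punches of juvenile wildtype mice of both sexes, born to C57BL/6 dams. The dams drank either plain water or water with fentanyl at 10 µg/ml, starting on embryonic day 0 and ending at weaning of the pups, so exposure was through the dam. The 5 regions were 2 cortical areas, prelimbic (PrL) and primary somatosensory (S1), the nucleus accumbens (NAc) of the striatum, the ventrobasal nuclei of the thalamus (VBT) and, in the midbrain, the ventral tegmental area (VTA). Region, sex and treatment form 20 groups, 19 with 5 libraries and S1 male water with 4. The stated purpose was a transcriptome profile of reward and sensory areas after perinatal exposure, with the sexes kept apart. The labels do not say whether the libraries of a group came from separate animals or litters, so the p-values measure the spread between these libraries.

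Totals ran from 23032078 to 52069639 counts in the 98 libraries used, with a median of 36024982. The library labelled VTA male water 3 had counts in 6333 genes against at least 24079 in the others, and 53 of the 57 members were at 0 in it, so it was left out. The mean log2(CPM + 1) of 6 dopamine neuron genes was 3.94 to 6.47 in VTA and at most 1.78 elsewhere. That of 6 thalamic relay genes was 7.48 to 8.96 in VBT and at most 4.66 elsewhere, and that of 6 striatal genes was 7.19 to 8.96 in NAc and up to 6.52 in VBT. The 4 serotonin neuron genes varied widely among VTA libraries, with a score of 1.13 to 6.16. The score of 5 cortical genes was 6.5 to 7.63 in S1 and PrL, but it also ran from 2.64 to 6.02 among NAc libraries. VBT female water 2 stood out for choroid plexus genes (score 6.88 against 1.14 to 4.35). PrL female water 5 and PrL male water 3 stood out for olfactory bulb and newborn neuron genes (5.71 and 6.44 against 2.25 to 3.83).

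All members lie on the plus strand of chromosome 18 (GRCm38, GENCODE M21). The 14 genes of the alpha cluster span positions 36930184 to 37187661, the 22 beta genes 37264938 to 37524479, and the 21 gamma genes 37661793 to 37841873. The beta genes are nearly free of shared exons, with a median of 100% of their exon bases overlapped by no other gene on the same strand. That share was 46.4% for the alternate alpha genes, 55.2% for gamma-A, 55.8% for gamma-B and 60.4% for the C-type genes, because the constant exons belong to every gene of the cluster. Reads in the constant exons can be assigned to no single gene, and reads overlapping several genes made up 1.5 to 2.23% of each library. Levels are therefore given as CPM per kilobase of these own exon bases when genes are compared with each other, and as plain CPM when 1 gene is compared between samples.

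The C-type genes Pcdhgc3, Pcdhgc5 and Pcdhac2 were the most abundant members. Pcdhgc3 averaged 58.9 ± 15.3 CPM over all libraries (SD, n = 98), or 17.4 CPM per kb of own exon. Pcdhgc5 averaged 73.4 ± 47.4 CPM, or 15.9 CPM per kb, and its SD was the widest of any member, with region means that spanned 10.6-fold. Pcdhac2 reached 9.66 CPM per kb and Pcdhgc4 4.99, while Pcdhac1, the first of the C-type genes along the alpha cluster, stayed at 1.49. The median over the 5 C-type genes was 9.66 CPM per kb, above those of the alternate alpha (1.15), beta (1.6), gamma-A (2.85) and gamma-B (2.01) genes.

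Among the alternate genes, Pcdhga11 was highest at 6.37 CPM per kb, followed in its group by Pcdhga3 (3.99) and Pcdhga6 (3.85). Pcdhb9 (4.21), Pcdhb20 (3.87) and Pcdhb17 (3.72) led the beta genes, and Pcdhgb6 (4.06), Pcdhgb1 (2.19) and Pcdhgb2 (2.01) the gamma-B genes. The alternate alpha genes were sparser, led by Pcdha12 (2.73), Pcdha5 (1.86) and Pcdha9 (1.73) CPM per kb. At the other end stood Pcdhga1 (1.39), Pcdhgb5 (0.997), Pcdhb1 (0.0975) and Pcdha4, which had no count in 87 of 98 libraries and at most 4 counts in any. Only 8.56% of the exon bases of Pcdha4 are its own in this annotation, and a count of 0 allowed up to 0.13 CPM in the shallowest library, so these data place its level only as very low.

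Level followed position along a cluster loosely. Spearman's rho across genes between chromosomal order and CPM per kb was 0.5 in the alpha cluster (14 genes), 0.48 in the beta cluster (22) and 0.49 in the gamma cluster (21). Without the C-type genes it was 0.29 over 12 alpha genes and 0.2 over 18 gamma genes. Genes of a cluster are not independent replicates, and these values describe the same libraries.

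**Figure D1:**
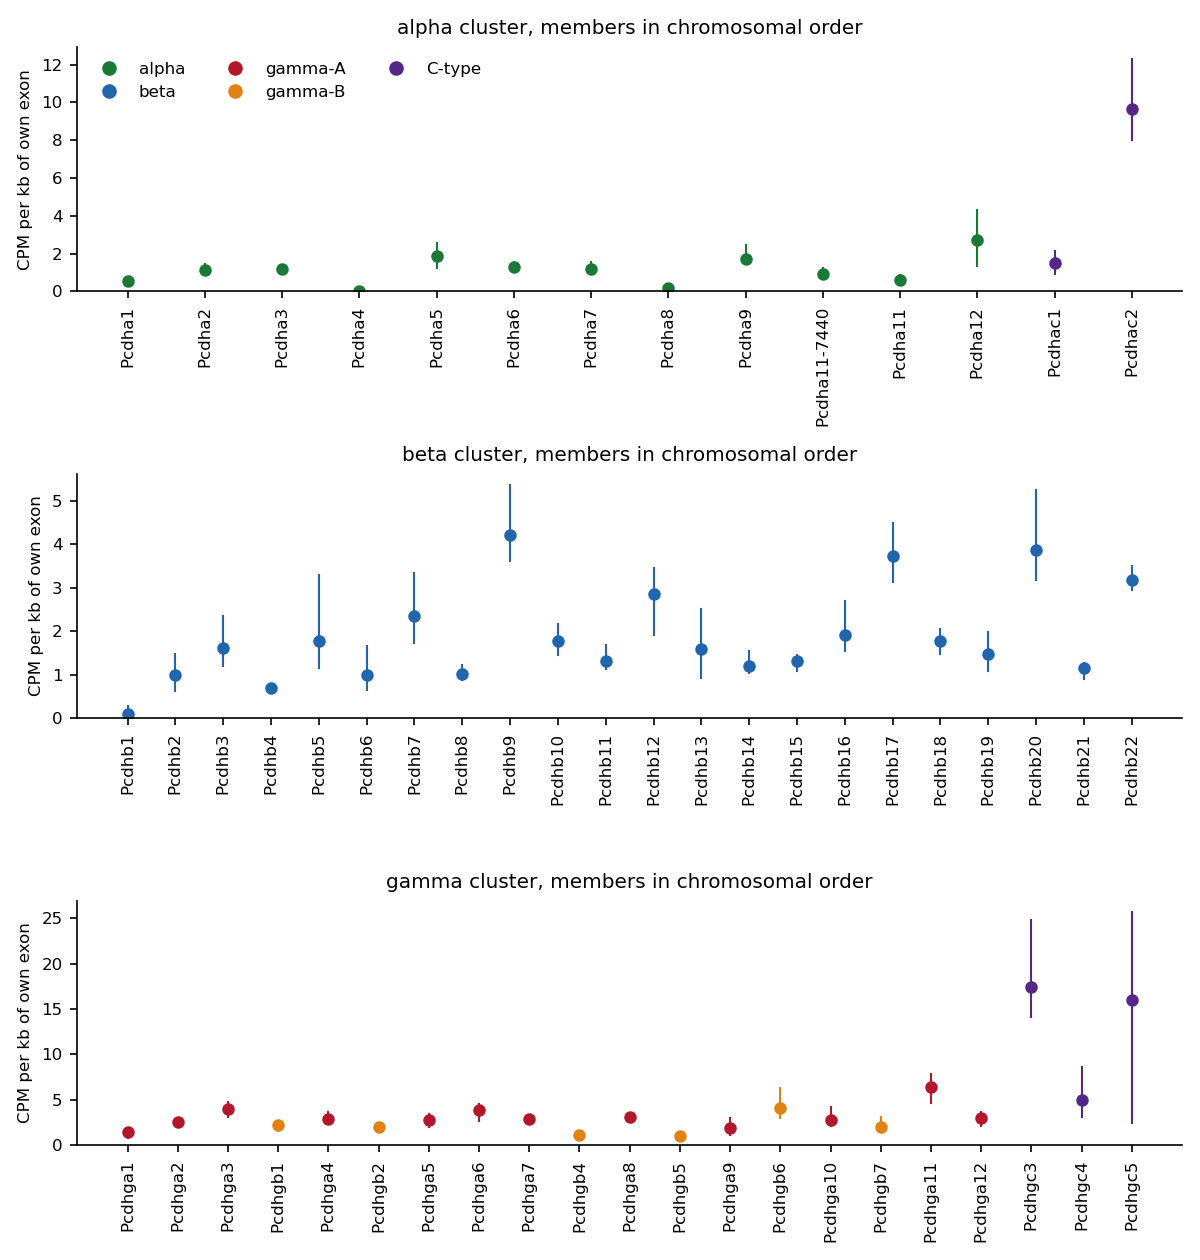
Mean level of each member over 98 libraries (points, CPM per kilobase of own exon) in chromosomal order within the alpha, beta and gamma clusters, with a line from the lowest to the highest of the 5 region means and colours for the 5 kinds of gene. Pcdhac2, Pcdhgc3 and Pcdhgc5 at the cluster ends rise above the alternate genes, and the line of Pcdhgc5 is the longest.

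Among members of at least 1 CPM on average, Pcdhgc5 differed most between regions. Its level was higher in cortex and accumbens than in thalamus and midbrain. Pcdhgc5 measured 11.2 ± 1.88 CPM in VTA (lowest 6.94, median 11.9, highest 14, n = 19) and 23.8 ± 3.95 in VBT (12.6, 24.7 and 30.0, n = 20). In S1 it measured 110.4 ± 18.8 CPM (71.2, 114.3 and 142.6, n = 19), in PrL 118.4 ± 11.7 (91.8, 118.1 and 138.9, n = 20) and in NAc 102 ± 11.8 (78.0, 105.9 and 116.7, n = 20). The libraries of VTA and VBT did not overlap with those of the other 3 regions, while S1, PrL and NAc overlapped with each other. The labels do not say whether libraries of different regions came from the same animals, and a fit over all 20 groups took them as independent. In it each region was set against the mean of the other 4, and a gene was called at an adjusted p under 0.05 and a difference of at least 1.5-fold. The log2 difference of Pcdhgc5 was 1.57 in PrL (SE 0.0524, adjusted p = 1.57e-43), 1.41 in S1 (SE 0.0538, adjusted p = 1.49e-39) and 1.18 in NAc (SE 0.0535, adjusted p = 1.46e-34). It was -1.3 in VBT (SE 0.0634, adjusted p = 8.34e-33) and -2.86 in VTA (SE 0.0738, adjusted p = 5.15e-52).

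Its neighbour Pcdhgc4 ran the other way. Pcdhgc4, whose protein is known for supporting the survival of neurons, measured 29.8 ± 3.38 CPM in VTA (21.2, 29.7 and 34.3) and 22.7 ± 2.85 in VBT (16.5, 23 and 27.9). It measured 10.6 ± 1.82 in S1 (7.62, 10.2 and 13.3), 12.8 ± 1.46 in PrL (10.4, 12.9 and 16.5) and 11.0 ± 2.46 in NAc (7.38, 10.8 and 16). No library of S1, PrL or NAc exceeded the lowest of VBT. Against the other regions Pcdhgc4 was higher in VTA (log2 difference 1.03, SE 0.0516, adjusted p = 3.06e-32) and VBT (0.736, SE 0.0516, adjusted p = 2.21e-23) and lower in S1 (-0.702, SE 0.0587, adjusted p = 7.91e-19) and NAc (-0.73, SE 0.0574, adjusted p = 2.63e-20).

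The ratio of the 2 genes within a library showed this without reference to any other gene. The log2 ratio of Pcdhgc5 to Pcdhgc4 per kb of own exon was -1.83 ± 0.197 in VTA (range -2.29 to -1.5) and -0.344 ± 0.319 in VBT (-1.33 to 0.296). It was 2.97 ± 0.152 in S1 (2.65 to 3.25), 2.8 ± 0.257 in PrL (2.07 to 3.22) and 2.83 ± 0.306 in NAc (2.02 to 3.4). The order of the 2 genes was thus reversed in VTA in every one of 19 libraries, and VBT lay between.

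Pcdhgc3, the third gamma C-type gene, was highest in thalamus. It measured 83.8 ± 9.3 CPM in VBT (59.9, 86.4 and 95.4) against region means of 47.7 to 56.3 CPM in the other 4, with some overlap of libraries. Its log2 difference in VBT was 0.769 (SE 0.0402, adjusted p = 2.92e-31), and it was called in no other region. Pcdhac2 differed less, from 24.3 ± 3.13 CPM in VBT to 37.3 ± 4.05 in PrL, with overlapping neighbours at every step of the order PrL, S1, VTA, NAc and VBT. Pcdhac1 was lowest in NAc (2.41 ± 0.779 CPM, log2 difference -0.841, SE 0.112, adjusted p = 1.86e-10) and highest in S1 (5.5 ± 1.51 CPM, log2 difference 0.748, SE 0.101, adjusted p = 3.77e-10).

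**Figure D2:**
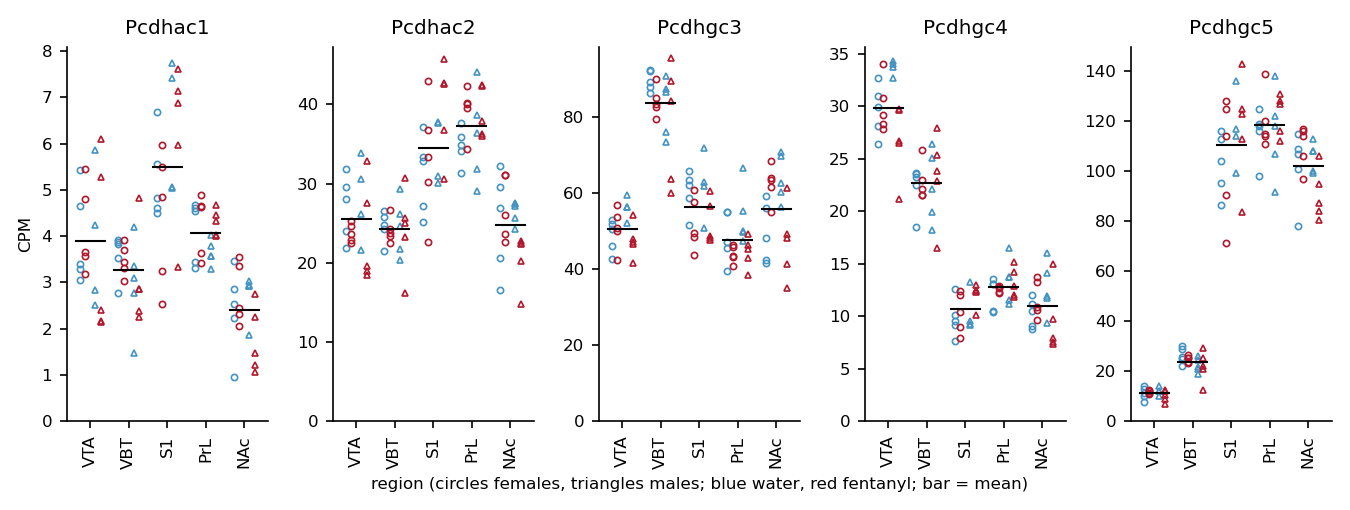
CPM of the 5 C-type members in each of 98 libraries by region, with circles for females, triangles for males, blue for water, red for fentanyl and a bar at the mean of each region. The Pcdhgc5 libraries of VTA and VBT lie at 6.94 to 30.0 CPM, below all libraries of S1, PrL and NAc, and no Pcdhgc4 library of those 3 exceeds the lowest of VBT.

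Marker scores of cell types differed between the regions as well. The score of 6 neuron genes averaged 9.44 in both S1 and PrL, 8.93 in VTA, 8.83 in NAc and 8.74 in VBT. That of 5 oligodendrocyte genes averaged 11.2 in VBT, 11 in VTA, 9.55 in NAc, 8.62 in S1 and 6.86 in PrL. In bulk tissue, fewer cells of a type and less RNA per cell cannot be told apart, and the part of these scores in the regional levels was not tested.

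Most of the alternate genes had a narrower spread of region means than Pcdhgc5, apart from the sparse Pcdhb1. Of the 56 members tested, 11 were higher and 3 lower in NAc, beside 14.1% and 12% of all 22326 genes tested. In PrL 6 were higher and 0 lower, beside 13.4% and 13.1%. In S1 6 were higher and 3 lower, beside 13.5% and 9.91%. VBT had 2 higher and 5 lower, beside 15.3% and 18.1%, and VTA 2 higher and 7 lower, beside 17.6% and 13.9%. The median log2 difference of the members was 0.232 in NAc, 0.12 in PrL, 0.127 in S1, -0.206 in VBT and -0.278 in VTA, while the median of all genes lay between -0.025 and 0.001. Summed over the 57 members, the family made up 607.7 ± 62.7 CPM in NAc, 571.8 ± 55 in S1, 567.7 ± 26.8 in PrL, 445.1 ± 31 in VBT and 434.9 ± 31 in VTA.

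Of the 12 alternate alpha genes, 8 had their highest mean in PrL, while Pcdha2 had its lowest there. Of 11 tested, 10 had a positive log2 difference in PrL (median 0.572) and 5 were called higher. Pcdha12, the last alternate gene before the alpha C-type pair, measured 10.7 ± 1.48 CPM in PrL (7.6, 10.8 and 12.9) and 3.3 ± 0.675 in VTA (1.64, 3.34 and 4.32), and these libraries did not overlap. Its log2 difference was 1.03 in PrL (SE 0.0665, adjusted p = 4.06e-25) and -1.26 in VTA (SE 0.0808, adjusted p = 1.18e-25). Pcdha11 followed in PrL at 4.11 ± 0.99 CPM (log2 difference 0.842, SE 0.0848, adjusted p = 4.4e-15), and Pcdha9, Pcdha5 and the gene ENSMUSG00000007440 were called there too, at log2 differences of 0.739, 0.708 and 0.637. GENCODE gives ENSMUSG00000007440 the symbol Pcdha11 a second time, RefSeq calls the gene at its position Pcdha10, and it appears in the plots as Pcdha11-7440.

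In NAc all 11 alternate alpha genes had a negative log2 difference (median -0.337), and 1 was called lower, Pcdha1 at 0.987 ± 0.383 CPM (log2 difference -0.618, SE 0.13, adjusted p = 1.91e-05). In the same region 18 of 22 beta genes (median 0.313), all 12 gamma-A genes (0.313) and 5 of 6 gamma-B genes (0.359) were positive. With the water libraries alone, 10 of the 11 alpha genes were negative in NAc and the median was -0.197.

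Among the beta genes, of which Pcdhb21 and Pcdhb22 share some exon bases (90.3% and 93.1% are their own), 16 of 22 had their highest mean in NAc and 11 their lowest in VBT. Pcdhb1, the first of the cluster, was nearly silent in S1 (0.0404 ± 0.0506 CPM), VBT (0.0509 ± 0.0664) and PrL (0.0979 ± 0.0961). It reached 0.337 ± 0.242 CPM in VTA and 0.729 ± 0.404 in NAc, where the libraries ran from 0.227 to 2 CPM. The fit called it higher in NAc and VTA and lower in S1, and these calls are in the counts above. Pcdhb1 passed the filter on low counts only in VTA and NAc when regions were fitted apart, so these calls lend it no independent support. No fold size is given for it, because 23 libraries were at 0 and the fit gave no usable estimate in VBT (SE 29300, adjusted p = 1) or PrL (SE 17.6, adjusted p = 0.994).

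Pcdhb5 was highest in S1, at 11.6 ± 2.47 CPM (6.81, 11.7 and 17) against means of 4.04 to 5.5 in the other regions (log2 difference 1.28, SE 0.0491, adjusted p = 7.7e-40). Its neighbours Pcdhb2 and Pcdhb3 were also called higher in S1, at log2 differences of 0.812 (SE 0.0788) and 0.757 (SE 0.0495), while Pcdhb4 between them and Pcdhb5 was not. Pcdhb6, the next gene along, was lowest in S1 (2.39 ± 0.427 CPM, log2 difference -0.634, SE 0.0762) and highest in NAc (6.27 ± 1.2 CPM, log2 difference 1.01, SE 0.0659, adjusted p = 5.38e-25). The adjusted p in S1 was 1.07e-15 for Pcdhb2, 1.1e-24 for Pcdhb3 and 7.04e-12 for Pcdhb6. Pcdhb13 went from 3.44 ± 0.757 CPM in VTA (log2 difference -1.01, SE 0.0684, adjusted p = 3.94e-24) to 9.34 ± 1.59 in NAc (0.892, SE 0.0579, adjusted p = 4.93e-25), and the highest VTA library (4.58) lay below the lowest of NAc (7.16).

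In the gamma cluster, the run from Pcdhga9 through Pcdhgb6 and Pcdhga10 to Pcdhgb7 was called higher in NAc, at log2 differences of 0.857, 0.797, 0.79 and 0.748. Pcdhga9 measured 10.3 ± 2.66 CPM in NAc (6.87, 9.94 and 16.3) and 3.85 ± 0.796 in VBT (2.9, 3.63 and 5.92), where its log2 difference was -0.769 (SE 0.0733, adjusted p = 2.5e-16). The libraries of these 2 regions did not overlap. Pcdhga1, the first gamma gene, was lowest in VBT at 2.55 ± 0.776 CPM (log2 difference -0.849, SE 0.108, adjusted p = 3.44e-11) and higher in S1 and NAc (0.678 and 0.591).

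The PrL libraries rich in olfactory bulb markers, PrL female water 5 and PrL male water 3, had lower Pcdhgc5 (98.1 and 91.8 CPM) than the other 18 of that region (107 to 139). Their summed gamma-B levels (37.3 and 43 CPM) were above those of the others (26.8 to 34.9), as were their summed beta levels (181 and 192 against 140 to 173), while their Pcdhac2 (31.3 and 29) was below (31.9 to 44.1). VBT female water 2 had a summed gamma-B level of 35.3 CPM against 25.7 to 34 in the other VBT libraries. Without these 2 and VBT female water 2, 1 member in place of 0 was called lower in PrL.

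**Figure D3:**
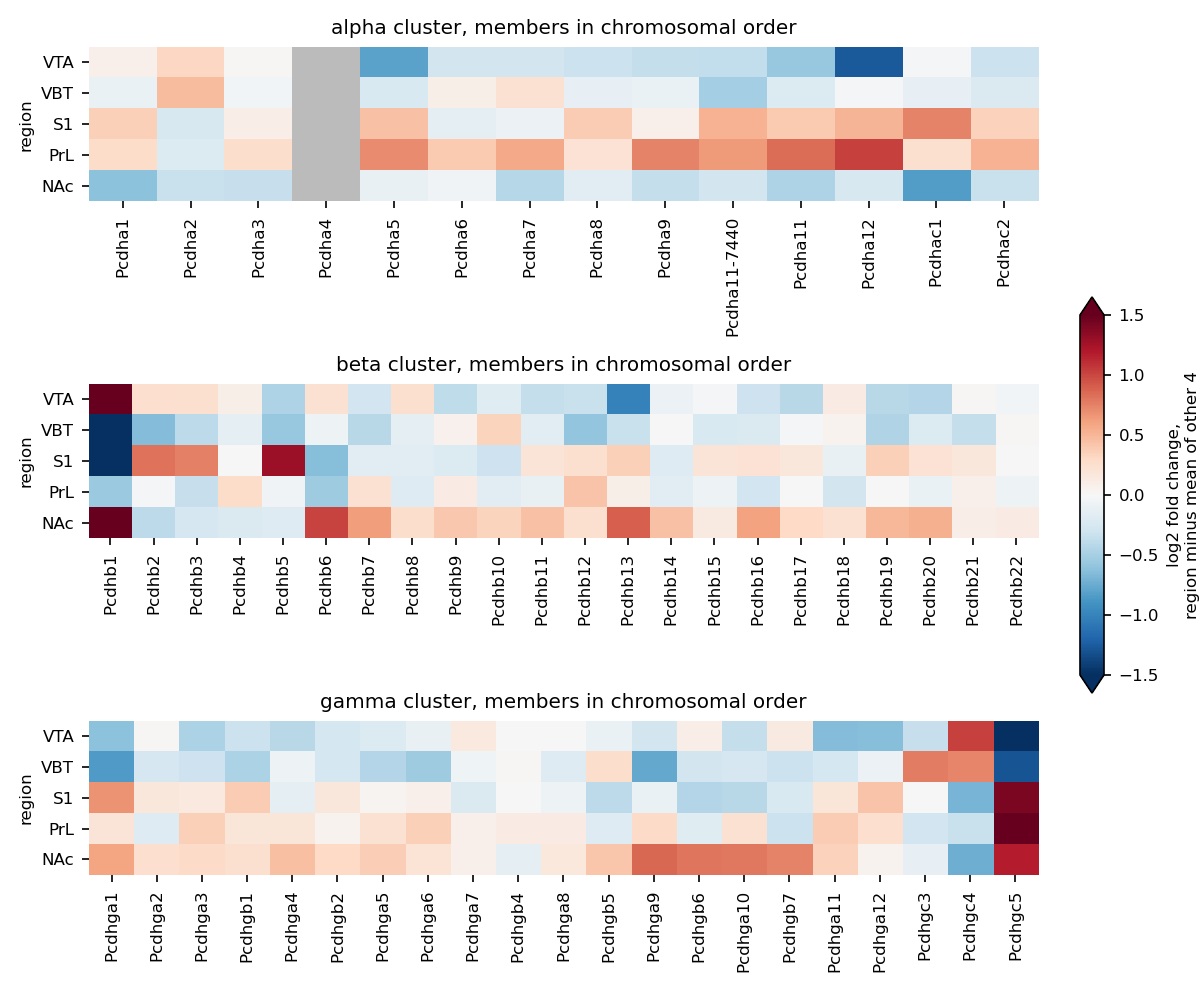
Log2 difference of each region from the mean of the other 4 for 56 members in chromosomal order, red for higher and blue for lower, with colours capped at 1.5 and grey for Pcdha4, which was not tested. In the alpha panel the PrL row is mostly red and the NAc row blue, in the beta and gamma panels the NAc row is mostly red, and Pcdhgc4 and Pcdhgc5 have opposite colours in every region.

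The shares of the groups within the family differed between regions too. The beta genes made up 36.8% of the summed CPM in VTA, 34.7% in NAc, 32.8% in VBT, 31.6% in S1 and 28% in PrL. The C-type genes made up 38.8% in PrL, 38% in S1, 35.4% in VBT, 32.2% in NAc and 27.8% in VTA. The alternate alpha genes made up 4.73 to 7.84%.

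Deviations of libraries from their group means were compared between members as a description. After each group's mean was removed, the Pearson correlation of log2 levels between 2 members over 98 libraries had a median of 0.35 for 51 adjacent pairs of a cluster, 0.3 for 435 other pairs of a cluster and 0.19 for 945 pairs from different clusters. Within S1 alone the same medians were 0.35, 0.36 and 0.36, and the median over 66 pairs of alpha genes ran from 0.05 in PrL and 0.09 in VTA to 0.59 in VBT. These 54 members had at least 1 CPM on average, and all pairs share the same libraries, depth and tissue makeup. The biological coefficient of variation, edgeR's estimate of the spread between libraries of a group, had a median over members of 0.146 (VBT) to 0.179 (NAc), beside 0.138 to 0.159 over all genes.

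Fentanyl against water was tested within each region for females, for males, for the average of the sexes and for the difference between the sexes. A gene was called at an adjusted p under 0.05 over all genes of the region, between 18923 and 19822. Members were called in VTA males, in the VTA average and in NAc males. The sex difference itself, males minus females averaged over treatments, was called for no member in any region by edgeR, and by DESeq2 for 1 member in VTA and 1 in NAc.

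In male VTA, where 22% of all genes were called, 3 of 56 members changed. Pcdhgc4 fell, from 34, 32.7, 34.3 and 33.7 CPM in the 4 water libraries to 26.7, 29.7, 26.5, 21.2 and 29.6 CPM with fentanyl. Every fentanyl library lay below every water library, as in 13.2% of all genes, and the log2 fold change was -0.298 (SE 0.0777, adjusted p = 0.011). In females the same gene measured 29.6 ± 2.44 CPM with water and 30 ± 2.52 with fentanyl (SD, n = 5 each), and the difference between the sexes was not called (log2 -0.303, SE 0.107, adjusted p = 0.42).

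Pcdhb14 rose in male VTA, from 8.63, 10.2, 9.3 and 9.06 CPM to 10.2, 12.3, 12, 10.1 and 10.8 (log2 fold change 0.29, SE 0.0931, adjusted p = 0.0312). The highest water library overlapped with the lowest fentanyl libraries near 10.2 CPM. Pcdhb16 rose from 7.02, 6.76, 6.63 and 8.3 CPM to 7.53, 10.3, 9.54, 8.07 and 9.54 (0.359, SE 0.125, adjusted p = 0.0453), with overlapping groups. The 3 calls became 0 with offsets for GC content (4.33% of all genes called), where the fold change of Pcdhb14 was -0.000297, and 0 with VTA male water 3 kept (0.216% of all genes), where that of Pcdhgc4 was 0.0239. They became 1 with no filter on low counts (9.24% of all genes) and 7 with each library's share of reads outside exons in the model (27.9%). Without VTA male water 1, male water 4 or male fentanyl 3, 1 member was called in place of 3.

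In the VTA average of both sexes, where 23.1% of all genes were called, 2 of 56 members changed. Pcdha2 fell, in females from 3.6, 4.44, 3.86, 4.43 and 4.48 CPM to 3.87, 3.31, 2.67, 2.92 and 2.69. In males it measured 3.78, 3.84, 3.45 and 4.54 CPM with water and 2.47, 3.38, 3.47, 3.48 and 3.04 with fentanyl. The groups overlapped at 1 fentanyl library in females and 2 in males, and the log2 fold change was -0.352 (SE 0.0964, adjusted p = 0.0129). Pcdhb14 rose by 0.228 (SE 0.0638, adjusted p = 0.0144), with 11.4 ± 0.94 CPM in fentanyl females against 10 ± 1.14 with water. With VTA male water 3 kept 0 members were called in the average (0.309% of all genes), with GC offsets 1 (4.83%), and without VTA female fentanyl 5 or male fentanyl 2, 4.

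The alternate alpha and beta genes had fold changes of mostly opposite sign in VTA, nearly all below the threshold. All 11 alternate alpha genes had a negative average fold change (median -0.173) and 19 of 22 beta genes a positive one (median 0.104), while the median of all genes was 0. With GC offsets all 11 alpha genes were again negative (median -0.229), whereas the beta genes were then 12 positive and 10 negative (median 0.012). With VTA male water 3 kept, 7 of 11 alpha genes were negative. The dopamine neuron score was lower in fentanyl males (5.2 ± 0.862) than in water males (6.07 ± 0.354), and its part in these values was not tested.

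No member was called in VTA females by edgeR, beside 0% of all genes, or by the Wald test of DESeq2, beside 0.444%. At an unadjusted p under 0.05 there were 5 of 56 members, beside 12.7% of all genes. The 2 members with the smallest p were Pcdhb3 (log2 fold change 0.306, SE 0.0896, adjusted p = 0.266) and Pcdha2 (-0.442, SE 0.133, adjusted p = 0.274). Pcdhb3 measured 7.32, 6.12, 6.87, 7.52 and 6.31 CPM with water and 7.92, 8.13, 10.4, 8.18 and 8.06 with fentanyl, with no overlap, as in 1.02% of all genes in that direction. In the difference between the sexes in VTA, DESeq2 called 0 members, beside 0.0353% of all genes, and edgeR 0, beside 0%. By edgeR 6 members had an unadjusted p under 0.05 there, beside 11.4% of all genes. The smallest p there belonged to Pcdhb4 (log2 -0.685, SE 0.22, adjusted p = 0.42) and Pcdhb3 (-0.386, SE 0.131, adjusted p = 0.42).

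**Figure D4:**
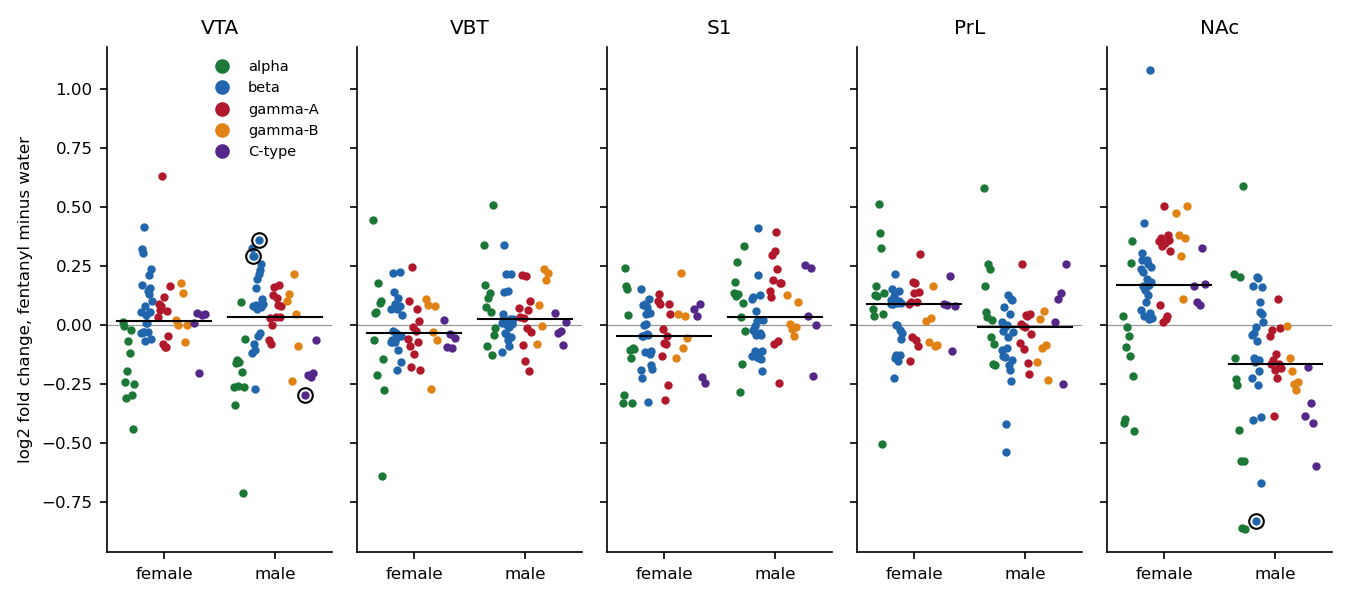
Log2 fold change of fentanyl minus water for each member tested, in females and males of the 5 regions, coloured by kind of gene, with a bar at the median and a black ring around members with an adjusted p under 0.05. The 3 rings in VTA males and the 1 in NAc males mark the called members, and the medians of NAc lie at 0.17 in females and -0.166 in males.

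In male NAc, where 0.662% of all genes were called, 1 of 56 members changed, Pcdhb4. It fell from 3.23, 2.99, 2.79, 3.85 and 2.42 CPM with water to 1.39, 1.37, 1.49, 1.79 and 2.43 with fentanyl. The highest fentanyl library met the lowest water library, and the other 4 lay below all of them. The log2 fold change was -0.833 (SE 0.188, adjusted p = 0.0421). In females Pcdhb4 measured 2.08, 1.51, 2.25, 2.39 and 2.14 CPM with water and 3.22, 2.33, 3.47, 2.75 and 2.32 with fentanyl, at 0.43 (SE 0.186, adjusted p = 0.544). The difference between the sexes was -1.26 (SE 0.264, adjusted p = 0.0811), which did not pass. In males 0 members were called with the replicate block (0.0103% of all genes), with no filter on low counts (0.213%) or with exon length offsets (0.0565%), and 5 with DESeq2 (4.74%). Without NAc male fentanyl 5, 5 members were called in males, without NAc female water 2, 2 were, and leaving out any one of 14 of the 20 libraries left 0.

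Most members had a positive fold change in NAc females and a negative one in NAc males, of which 1 passed the test, in males. Of 56 members, 48 had a positive log2 fold change in females (median 0.17) and 44 a negative one in males (median -0.166), beside medians of 0.001 and -0.005 over all genes. At an unadjusted p under 0.05, 13 members were higher and 0 lower in females, and 0 were higher and 11 lower in males. Over all genes, 9.03% in females and 17.6% in males had an unadjusted p under 0.05. The difference between the sexes had a median of -0.384, with 18 members lower and 0 higher at an unadjusted p under 0.05, beside 15.2% of all genes in either direction. By edgeR, 0 members were called in that difference and 0 in females, beside 0% of all genes in both. DESeq2's Wald test called 4 in the difference, 5 in males and 0 in females, beside 2.37%, 4.74% and 0.0821% of all genes.

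Pcdhgc3, the member with the highest mean level per kb over the libraries of all regions, had the same pattern of values. It measured 59.3, 48.2, 42.5, 41.5 and 56.1 CPM in water females and 63.9, 68.5, 61.5, 63.3 and 54.9 in fentanyl females. In males it measured 56.4, 70.9, 69.8, 62.7 and 60.3 CPM with water and 48.1, 41.3, 35.1, 49.3 and 61.3 with fentanyl. Both sexes overlapped, and the difference between them was -0.742 (SE 0.169, adjusted p = 0.0811).

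The gamma genes had the highest medians in females. All 12 gamma-A genes (median 0.34) and all 6 gamma-B genes (0.375) were positive in females. Those with the smallest p were Pcdhgb7 (log2 fold change 0.505, SE 0.136, adjusted p = 0.544) and Pcdhga6 (0.382, SE 0.119, adjusted p = 0.544). Pcdhgb7 measured 5.77, 5.63, 7.86, 6.75 and 5.89 CPM with water and 11.3, 10.1, 8.14, 8.9 and 7.07 with fentanyl. In males 11 of the 12 gamma-A genes (median -0.157) and all 6 gamma-B genes (-0.218) were negative. Pcdhga2 had no overlap in females, at 4.74 to 6.86 CPM with water and 7.01 to 10.7 with fentanyl, as in 0.498% of all genes in that direction.

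The alternate alpha and C-type genes had the lowest medians in males. In males 8 of 11 alpha genes (median -0.257) and all 5 C-type genes (-0.385) were negative. In females 8 of 11 alpha genes were negative too (-0.093), and all 5 C-type genes were positive (0.166). Summed, the C-type genes of males came to 193, 222, 224, 215 and 203 CPM with water and 177, 149, 152, 188 and 181 with fentanyl, with no overlap. In females they came to 152 to 216 CPM with water and 197 to 228 with fentanyl, with overlap. Pcdha9, Pcdhac2, Pcdhb2 and Pcdhb15 had every fentanyl male below every water male, as in 2.21% of all genes in that direction, and none of the 4 was called by edgeR (adjusted p 0.0653 for Pcdha9, 0.071 for Pcdhb2, 0.276 for Pcdhac2 and 0.421 for Pcdhb15).

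The medians of these 5 kinds of gene kept their sign in both sexes over 9 fits, the reported one and those with other normalizations, filters and corrections. Marker scores of the NAc groups are given beside these values. The striatal score was 7.81 ± 0.558 in water females and 8.49 ± 0.252 in fentanyl females, the cortical score 5.38 ± 0.865 and 4.44 ± 1.35, and the neuron score 9.1 ± 0.275 and 8.72 ± 0.28. In males the striatal score was 8.19 ± 0.238 with water and 8.42 ± 0.495 with fentanyl, the cortical score 4.78 ± 0.268 and 4.6 ± 1.34, and the oligodendrocyte precursor score 5.54 ± 0.135 and 5.18 ± 0.169. The neuron score is given here for females only and the oligodendrocyte precursor score for males only. The part of these scores in the values of the members was not tested.

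In the NAc average no member was called by edgeR, beside 0% of all genes, and 0 were called by DESeq2, beside 0.554%. At an unadjusted p under 0.05 there were 7 of 56, beside 12% of all genes. The smallest p belonged to Pcdha7 (log2 fold change -0.66, SE 0.206, adjusted p = 0.283) and Pcdha6 (-0.356, SE 0.146, adjusted p = 0.347). Pcdha7 measured 2.63 ± 0.648 CPM in water females, 1.94 ± 0.456 in fentanyl females, 2.55 ± 0.823 in water males and 1.39 ± 0.711 in fentanyl males (SD, n = 5 each).

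**Figure D5:**
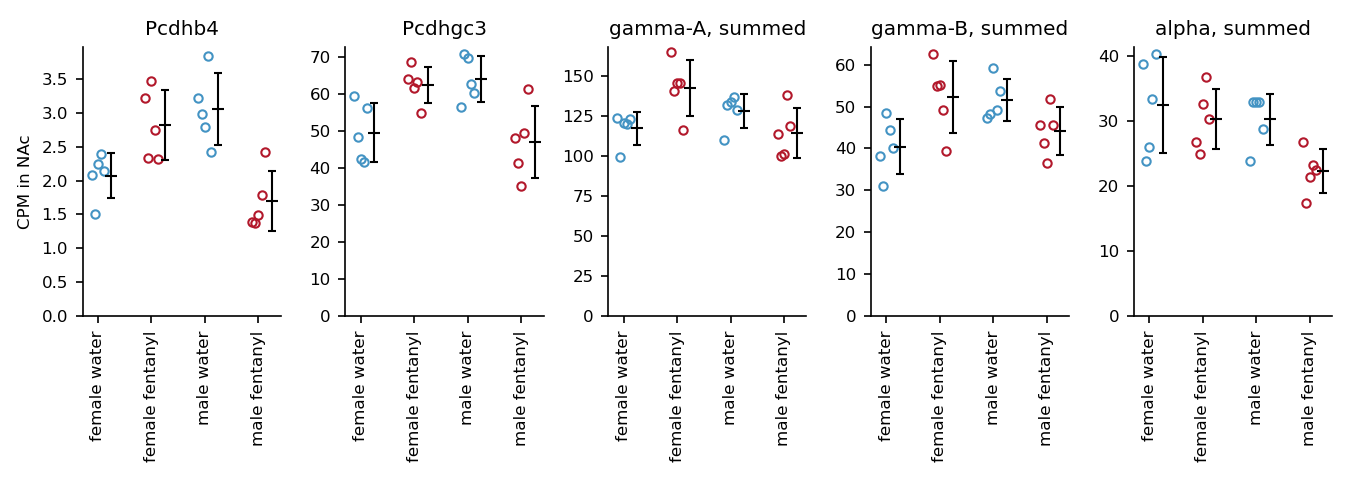
CPM in the 20 NAc libraries for Pcdhb4 and Pcdhgc3 and summed over the gamma-A, gamma-B and alternate alpha members, by sex and treatment, with each library as a circle and the mean with its SD beside it. In males the Pcdhb4 fentanyl libraries lie at 1.37 to 2.43 CPM against 2.42 to 3.85 with water, and in females at 2.32 to 3.47 against 1.51 to 2.39.

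In the remaining regions no member was called for fentanyl, by edgeR or by DESeq2. DESeq2 called 4.08% of all genes in the PrL average, 3.27% in the S1 average and 2.04% in S1 females. In the other fentanyl contrasts of these regions it called at most 0.576%. The counts and shares that follow are those of edgeR. VBT had 2 members at an unadjusted p under 0.05 in females and 1 each in males, the average and the difference between the sexes, where 7.86%, 8.7%, 8.49% and 8.03% of all genes passed that p and 0% were called in each. The smallest p in VBT females was that of Pcdhgb6 (log2 fold change -0.273, SE 0.105, adjusted p = 0.486) and in males that of Pcdhb7 (0.338, SE 0.109, adjusted p = 0.343). The average was led by the gene ENSMUSG00000007440 (0.39, SE 0.147, adjusted p = 0.507), which was also next in females (0.444, SE 0.206), and the difference between the sexes by Pcdhb7 (0.363, SE 0.153, adjusted p = 0.535) and Pcdha8 (1.15, SE 0.582, adjusted p = 0.659). Next to them were Pcdhga6 in males (-0.198, SE 0.101) and Pcdhb7 in the average (0.156, SE 0.0766).

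S1 had 4 members at an unadjusted p under 0.05 in females, where 13.9% of all genes passed that p and 0.142% were called. It had 3 each in males (7.15% of all genes, 0% called), in the difference between the sexes (4.14%, 0% called) and in the average (15.8%, 1.03% called). Pcdhgc3 had the smallest p in the average (log2 fold change -0.219, SE 0.0691, adjusted p = 0.118). It measured 62.2, 63.5, 65.8, 58.6 and 51.7 CPM in water females, 49.5, 43.8, 57.6, 60.8 and 48.3 in fentanyl females, 61.8, 50.7, 62.8 and 71.8 in water males and 60.4, 56.6, 48.6, 48.1 and 47.6 in fentanyl males, with overlap in both sexes. Pcdhga6 followed (-0.252, SE 0.101, adjusted p = 0.219). By smallest p, females were led by Pcdhgc3 (-0.222, SE 0.095) and Pcdhb22 (-0.188, SE 0.0806), both at an adjusted p of 0.296. Males were led by Pcdhb15 (0.409, SE 0.149, adjusted p = 0.628) and Pcdhga7 (0.395, SE 0.161, adjusted p = 0.67), and the difference by Pcdhga7 (0.716, SE 0.222) and Pcdhga11 (0.325, SE 0.144), both at an adjusted p of 0.957.

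PrL had 7 members at an unadjusted p under 0.05 in the average, where 19.1% of all genes passed that p and 0.697% were called. It had 5 in males (12% of all genes, 0% called), 3 in females (9.53%, 0.021% called) and 2 in the difference between the sexes (2.59%, 0% called). Pcdhgc3 again had the smallest p in the average (-0.181, SE 0.0627, adjusted p = 0.134), with 53.8 ± 7.68 CPM in water males, 44.4 ± 4.01 in fentanyl males, 48.5 ± 6.55 in water females and 43.9 ± 2.25 in fentanyl females (SD, n = 5 each). Both PrL libraries rich in olfactory bulb markers are water libraries, and their Pcdhgc3 levels (66.6 CPM in male water 3 and 55.1 in female water 5) were the highest of their groups. Without these 2 libraries the average fold change was -0.127. The gene ENSMUSG00000007440 had higher values with fentanyl in males, from 2.12, 3.1, 2.07, 2.31 and 2.45 CPM to 3.29, 4.2, 3.47, 3.37 and 3.45 (0.579, SE 0.167, adjusted p = 0.315). These groups did not overlap, as in 0.671% of all genes in that direction. By smallest p, females were led by Pcdha6 (0.39, SE 0.156, adjusted p = 0.431) and Pcdhga3 (0.298, SE 0.128, adjusted p = 0.474), and the difference by Pcdhb4 (-0.635, SE 0.268) and ENSMUSG00000007440 (0.511, SE 0.236), both at an adjusted p of 0.999.

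Sex itself, averaged over treatments, left every member uncalled by edgeR, beside 0.132% of all genes in VBT, 0.0858% in VTA, 0.0786% in PrL, 0.077% in NAc and 0.0709% in S1. DESeq2's Wald test called 1 member in VTA (0.156% of all genes), 1 in NAc (0.308%) and 0 in VBT (1.36%), S1 (0.182%) and PrL (0.0944%). Members with an unadjusted p under 0.05 numbered 11 in NAc (9.72% of all genes), 10 in PrL (3.92%) and 8 each in VTA (7.25%), VBT (13.1%) and S1 (6.12%). The smallest adjusted p was that of Pcdhb13 in VTA, at 0.0532. Pcdhb13 measured 3.44, 4.27, 4.44, 4.11 and 3.69 CPM in water females and 2.69, 3.04, 3.28 and 2.55 in water males. With fentanyl it measured 4.04 ± 0.582 CPM in females and 2.73 ± 0.482 in males (SD, n = 5 each), and the log2 difference of males minus females was -0.501 (SE 0.0971). All 22 beta genes had a negative sex difference in VTA (median -0.158), as did 19 of 21 in VBT, 18 of 21 in PrL and 21 of 22 in NAc, but 11 of 21 in S1. The sign was not particular to the beta genes. All 11 alternate alpha genes tested were negative in NAc (median -0.297) and 10 of 11 in VBT (-0.179). In VTA 5 of the 11 were negative, in PrL 6 and in S1 3. The median sex difference of all genes lay between -0.007 and 0.004.

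Genes around the family were followed through lists chosen with earlier results of these data known. Among the 11 genes of CTCF and cohesin, which loop the chosen promoters to their enhancers, 6 rose and 0 fell in VTA males and 8 rose and 0 fell in the VTA average, beside the 22% and 23.1% of all genes called. Pds5a rose by 0.338 (SE 0.0675, adjusted p = 0.00323) and Wapl, which releases cohesin, by 0.253 (SE 0.0769, adjusted p = 0.0241) in males. Of 10 silencing and DNA methylation genes, 1 rose (Smchd1, 0.337, SE 0.0855, adjusted p = 0.00938) and 4 fell in VTA males, among them Dnmt1 (-0.255, SE 0.0512, adjusted p = 0.00323), Trim28 (-0.208, SE 0.0591, adjusted p = 0.017) and Dnmt3a (-0.188, SE 0.0573, adjusted p = 0.0244). Of 20 partners and processing enzymes of the proteins, 7 rose and 2 fell, with Nckap1 of the WAVE complex at 0.523 (SE 0.0863, adjusted p = 0.00218) and Nlgn2, a synaptic adhesion protein, at -0.432 (SE 0.0834, adjusted p = 0.00296).

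Of 12 non-clustered protocadherins, 2 rose and 2 fell in VTA males: Pcdh9 (0.4, SE 0.123, adjusted p = 0.0253), Pcdh11x (0.374, SE 0.125, adjusted p = 0.0385), Pcdh1 (-0.438, SE 0.0998, adjusted p = 0.00549) and Pcdh8 (-0.602, SE 0.18, adjusted p = 0.0237). With GC offsets 0 genes of the CTCF and cohesin, silencing and non-clustered lists were called in VTA males or the average, and 3 partners rose. With VTA male water 3 kept those 3 lists again had 0 and 2 partners rose. The dopamine neuron score, 5.2 in fentanyl males and 6.07 in water males, differed alongside, and its part in them was not tested. No gene of these 4 lists was called for fentanyl in any other region. Between regions, 8 of the 12 non-clustered genes were lower in VBT, beside 18.1% of all genes, and 6 were higher in PrL, beside 13.4%. None of the 10 silencing genes was called in a region.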

How the data were processed

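Libraries had been made from 10 ng of RNA with a Smart-Seq v4 kit, per the labels' protocols. The values are whole-number counts of reads per gene, made by the authors with HTSeq on GRCm38, per the submitters' processing notes. The aligner, annotation release and strand setting are not given in the sources used here. Lines that name no gene stayed out of totals, and reads outside exons made up 9.99 to 18% of each library.

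Counts were tested with edgeR 4.0.16 in R 4.3.3 (TMM scaling, filterByExpr, robust quasi-likelihood test, Benjamini-Hochberg adjustment over all genes tested). Each region had a fit over its 4 groups, and 1 fit over all 20 groups gave the regional contrasts. DESeq2 1.42.0, other scaling and filters, GC and length offsets, a covariate, the replicate block, length choices and leaving out libraries were alternatives. The length over both strands was added after seeing the data. The code was tested on simulated data. Of 57 members, 55 were tested in all 5 regions, Pcdhb1 in VTA and NAc, and Pcdha4 in none. Exon lengths came from GENCODE M21, which held 55154 of 55335 identifiers. Intervals and floors cover counting error only.

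Values by name are given for the 5 C-type genes, for the 3 highest and the lowest of each other kind by CPM per kb, for called members, for the 2 members with the smallest p where a treatment contrast had none called, for the 3 largest rises and falls called in each region, and for up to 4 called genes of each pathway list. Other members named with values (such as Pcdhga2, Pcdha9 and the neighbours of Pcdhb5 in S1) were chosen after their values were seen. The members, lists and alternatives were chosen with earlier results of these data known. The labels state no pairing by replicate number and same-numbered libraries were at most weakly correlated, so no block entered the reported fits.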

Additional observations from a re-analysis of the deposited data

Results flagged for a closer look

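Of 100 groups of summed levels (5 kinds of clustered protocadherin in 20 groups), 3 held a library that stood far from the rest of its group, where chance would give about 5. NAc female water 3 had a summed beta level of 236 CPM against 190 to 201 in the other libraries of its group. NAc female water 2 had a summed gamma-A level of 99.1 CPM against 120 to 124. VTA female fentanyl 5 had a summed gamma-B level of 31.7 CPM against 37.9 to 39.7.

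VTA male water 3, which entered no comparison, had counts in 4 members. Pcdhb18 measured 65.3 CPM in it against 8.26 to 12.5 in the other VTA libraries, Pcdhb22 116 against 15.5 to 24.7, Pcdhgc3 143 against 41.6 to 59.6 and Pcdhga7 0.242 against 7.07 to 12.8.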

How the results depend on the processing

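Of the counts of called members recomputed under other settings, 275 stayed within 1.5 times the reported count and 20 did not. The 3 members called in VTA males became 0 with VTA male water 3 kept, 1 with no filter on low counts, 0 with GC offsets and 7 with each library's share of reads outside exons in the model. They ranged from 1 to 4 when 1 library was left out. The 2 called in the VTA average became 0 with VTA male water 3 kept, 1 with GC offsets and 4 with that share in the model, where 29.3% of all genes were called. They ranged from 2 to 4 with 1 library left out. For the sex difference in VTA, 0 became 1 with DESeq2 and 1 with a mean count of at least 50 (0.115% of all genes), and ranged from 0 to 1 with 1 library left out. In the S1 average 0 became 1 with GC offsets (1.14% of all genes). The 1 member called in NAc males became 5 with DESeq2, 0 with no filter, 0 with exon length offsets and 0 with the replicate block, and ranged from 0 to 5 with 1 library left out. The 0 called in the NAc difference between the sexes became 4 with DESeq2 and ranged from 0 to 3, reaching 3 without female fentanyl 5 or female water 3. The 0 called for sex in NAc became 1 with DESeq2. Between regions, the 2 members higher in VTA became 1 with a mean count of at least 50, and the 5 lower in VBT became 8 with GC offsets. The 0 lower in PrL became 1 with the water libraries only, 1 without VBT female water 2, PrL female water 5 and PrL male water 3, and 0 to 1 with 1 replicate number left out. The fold change of Pcdhgc4 in VTA males turned to 0.0239 with VTA male water 3 kept, and that of Pcdhb14 to -0.000297 with GC offsets. The cause was not tested for any of these.

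The replicate block gave 2 calls in VTA males in place of 3. Same-numbered fentanyl and water libraries correlated above 0.1 in 0 of 10 pairs in NAc, 1 of 10 in PrL and 0 of 9 in S1. They did so in 3 of 10 pairs in VBT and 2 of 9 in VTA, with a highest value of 0.242. Same-numbered libraries of different regions reached at most 0.209. Low values cannot show that such libraries share only a number. Counted over exon bases free on both strands, the level of Pcdhgc3 was 32.3 CPM per kb in place of 17.4, that of Pcdhga11 13.4 in place of 6.37, that of Pcdhb12 7.83 in place of 2.86 and that of Pcdha11 2.19 in place of 0.601, so orders among genes depend on this length. Of 227 genes covered only by exons on the other strand 204 had counts, against 1 of 765 covered on the same strand. Depth limits the sparse members most: Pcdha4 in all regions, and Pcdhb1 in S1, VBT and PrL, averaged below the 0.13 CPM that a count of 0 allows in the shallowest library.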
